A study of Mus musculus with 3 samples.

Results

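The accessible chromatin of dopaminergic neurons (DNs) was described at 9 genes of neurotrophic factors and their receptors: *Gdnf*, *Bdnf*, *Ret*, *Ntrk2*, *Ntrk3*, *Ngfr*, *Gfra1*, *Gfra2* and *Gfra3*. A peak was taken where it overlapped the GENCODE M21 body of one of these genes or lay within 50 kb of it, and 90 of the 55326 peaks of DNs, or 0.163%, did so. The peaks came from single-nucleus ATAC-seq, in which a transposase cuts open chromatin in isolated nuclei, of midbrain ventral tegmental area from wild-type male C57Bl/6Nl mice. Replicate 1 was taken at 7 weeks of age and replicate 2 at 9 weeks, the labels name no treatment or transgene, and nuclei of the DN cluster of both libraries were joined before 1 list of peaks was made. The list holds positions only, each peak 500 bp wide, with no height, score or count, so no value below has a spread between replicates and no test was possible. A stretch without a peak is one where none was called at the depth of these libraries, which the list does not give.

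GDNF is a secreted survival factor of midbrain dopaminergic neurons. It binds a co-receptor of the GFRα family, held at the outer face of the membrane, and this pair activates the receptor tyrosine kinase RET. BDNF, a neurotrophin, acts through the receptor kinase TrkB, the product of *Ntrk2*, while TrkC, the product of *Ntrk3*, is the receptor of neurotrophin 3. The p75 receptor, made by *Ngfr*, binds all neurotrophins and their precursors.

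The label of the DN cluster was checked against markers. All 10 DN markers, among them *Th*, *Slc6a3*, *Ddc*, *Slc18a2* and *Nr4a2*, had a peak centred within 1 kb of a transcription start site (TSS) and 2 to 28 peaks in the gene body. The authors had chosen the cluster by its gene score of *Th* and checked it with markers that included *Slc6a3*, *Lmx1b*, *Foxa1* and *Foxa2*, so peaks at *Th* in particular follow in part from that choice. Markers of other cell types had a TSS peak in 0 of 4 genes for oligodendrocytes, 1 of 3 for astrocytes, 0 of 3 for microglia, 1 of 3 for GABAergic neurons and 0 of 3 for endothelial cells. The astrocyte gene with a TSS peak was *Slc1a2* and the GABAergic gene *Slc32a1*. Among all protein-coding genes, 56.4% had a TSS peak. Peaks in the gene body numbered 0 to 1 for oligodendrocyte and GABAergic genes, 0 to 2 for endothelial genes and 0 to 9 for astrocyte and microglial genes. Among the oligodendrocyte and GABAergic genes, *Olig2*, *Sox10*, *Mog* and *Gad2* had 0, and *Mag*, *Gad1* and *Slc32a1* had 1 each. The genes with 9 were *Slc1a2* and *Cx3cr1*. The part of other cells in the peaks of the 9 genes was not tested.

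Sequence from parts of the start-site peaks shows stretches rich in CG and stretches with few. The stretches below lie within peaks at a TSS and outside the annotated exons of their gene, are read from GRCm38 on the strand of the gene, and have every CG dinucleotide in capitals. All but the stretch of *Ret* lie upstream of a TSS, and that one lies in intron 1, 129 to 278 bp downstream of the TSS of Ret-201.
Bdnf-205, chr2:109693413-109693562 (plus strand): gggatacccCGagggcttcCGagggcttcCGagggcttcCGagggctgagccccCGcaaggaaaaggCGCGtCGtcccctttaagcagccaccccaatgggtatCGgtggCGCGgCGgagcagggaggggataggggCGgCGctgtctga
Ntrk2, chr13:58806322-58806471 (plus strand): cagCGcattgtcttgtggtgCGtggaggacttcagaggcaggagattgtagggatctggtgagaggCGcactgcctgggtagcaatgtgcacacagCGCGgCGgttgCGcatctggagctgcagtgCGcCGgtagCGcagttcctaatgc
Ntrk3, chr7:78578440-78578564 (minus strand): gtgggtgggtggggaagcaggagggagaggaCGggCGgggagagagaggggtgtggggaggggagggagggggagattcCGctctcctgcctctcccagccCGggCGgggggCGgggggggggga
Ngfr, chr11:95587736-95587877 (minus strand): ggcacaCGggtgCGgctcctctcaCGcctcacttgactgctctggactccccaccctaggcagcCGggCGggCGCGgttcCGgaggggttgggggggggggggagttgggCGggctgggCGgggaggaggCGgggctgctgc
Gfra2, chr14:70889957-70890106 (plus strand): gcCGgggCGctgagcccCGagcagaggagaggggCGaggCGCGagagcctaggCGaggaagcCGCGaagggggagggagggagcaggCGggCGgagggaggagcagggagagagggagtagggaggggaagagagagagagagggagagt
Ret, chr6:118196855-118197004 (minus strand): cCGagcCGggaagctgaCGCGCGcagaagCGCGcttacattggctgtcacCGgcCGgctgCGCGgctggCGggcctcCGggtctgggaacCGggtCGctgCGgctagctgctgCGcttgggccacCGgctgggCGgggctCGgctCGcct
Gfra1, upstream of Gfra1-201, chr19:58455947-58456018 (minus strand): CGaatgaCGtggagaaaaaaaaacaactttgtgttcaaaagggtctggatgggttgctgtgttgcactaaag
Gfra2, upstream of Gfra2-202, chr14:70940994-70941143 (plus strand): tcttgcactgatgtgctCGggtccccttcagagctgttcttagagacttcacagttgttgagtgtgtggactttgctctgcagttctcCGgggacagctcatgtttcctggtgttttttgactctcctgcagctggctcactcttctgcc
In the stretch of *Ret*, 21 CG dinucleotides stood in 150 bases with a GC content of 75.3%, in that of Bdnf-205 14 in 150 bases, in that of *Gfra2* 11 in 150 bases and in that of *Ngfr* 11 in 142 bases. The *Ntrk2* stretch held 10 in 150 bases and the *Ntrk3* stretch 6 in 125 bases. The stretch upstream of Gfra1-201 held 2 in 72 bases with a GC content of 41.7%, and that upstream of Gfra2-202 held 2 in 150 bases. This *Gfra1* stretch is only the upstream end of its peak, and the whole peak had a GC content of 59.6%. Stretches in other TSS peaks of *Gfra1*, not shown, held 10 in 150 bases and 5 in 81 bases. The *Bdnf* stretch shown was the richest of that gene, and those not shown held from 4 to 10 in at most 150 bases.

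The 90 peaks were spread unevenly over the genes. *Ntrk2* had 20, *Gfra1* 19 and *Ntrk3* 18, together 63.3% of all, while *Ret* had 11, *Bdnf* 7, *Gfra2* 5, *Gfra3* and *Ngfr* 4 each and *Gdnf* 2. By place, 21 peaks were centred within 1 kb of a TSS of their own gene, 48 lay in an intron, 2 in an exon, 9 in the upstream flank and 10 in the downstream flank. At least 1 peak fell in the region of each of the 9 genes, as it did for 83.2% of the 21755 protein-coding genes, and 8 of 9 had one in the gene body, as did 63.8% of protein-coding genes. A TSS peak was present at 7 of 9 genes, all but *Gdnf* and *Gfra3*, against 56.4% of protein-coding genes. Of the 31 annotated TSSs of these genes (basic transcripts), 28 had a peak centre within 1 kb, against 55.5% of the 41249 TSSs of protein-coding genes. TSSs of 1 gene often share a peak and are not independent of each other.

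**Figure D1:**
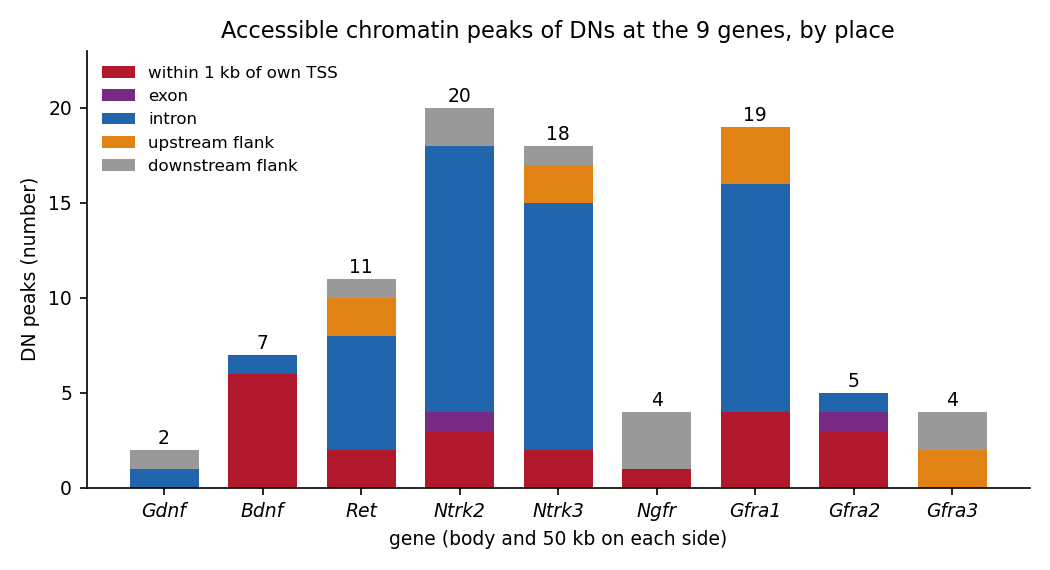
Number of DN peaks (y axis) in the body of each gene and 50 kb on each side (x axis, ligands first, then receptors, then co-receptors), with colours for the place of the peak relative to its own gene and the total above each bar. *Ntrk2*, *Gfra1* and *Ntrk3* carried 20, 19 and 18 peaks, mostly in introns, whereas 6 of the 7 peaks of *Bdnf* were at a TSS.

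Of the ligand genes, *Gdnf* (ENSMUSG00000022144, chr15:7810846-7837575, plus strand) had the fewest peaks. Neither of its 2 peaks was at the GENCODE TSS. The first, chr15:7812723-7813222, lay in intron 1, with its centre 2126 bp downstream of the GENCODE TSS. RefSeq places a further start of *Gdnf* at 7813727, and the same peak was centred 755 bp upstream of it. The other, chr15:7880598-7881097, was 70001 bp downstream of the TSS and inside the neighbouring gene *Wdr70*. The density of peaks, 15.8 per Mb of gene and flanks, was the lowest of the 9 genes, and 68.6% of protein-coding genes had a density as high or higher. Of the 7740 genes of similar length (0.5 to 2 times), 72.4% had as many body peaks, 1, or more.

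*Bdnf* (ENSMUSG00000048482, chr2:109674700-109727007, plus strand) is transcribed from many promoters, each with its own first exon spliced to a shared coding exon at the 3' end. Its body held 6 peaks, and 9.26% of the 6113 genes of similar length had as many or more, with a median of 2. With the flanks, 7 peaks formed 2 groups. Centres of 4 peaks were at -448, 1575, 2549 and 3438 bp from the first TSS, and those of the other 3 at 17786, 18865 and 20313 bp. Of its 9 TSSs, 8 had a peak centre within 1 kb and 3 lay inside a peak. Those 3 were the TSS of Bdnf-206 at 109677032, 217 bp from the peak centre, that of Bdnf-209 at 109692436, 50 bp away, and that of Bdnf-205 at 109693563, 2 bp away. The exception was Bdnf-202, with a TSS at 109709383 and the nearest peak 14370 bp upstream. When the gene body was cut into 3 equal parts, they held 3, 3 and 0 peaks, and the part with none holds the coding exon. An antisense gene, *Gm45346*, overlaps the start of *Bdnf*, and accessibility, which has no strand, cannot be assigned to one of them there.

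**Figure D2:**
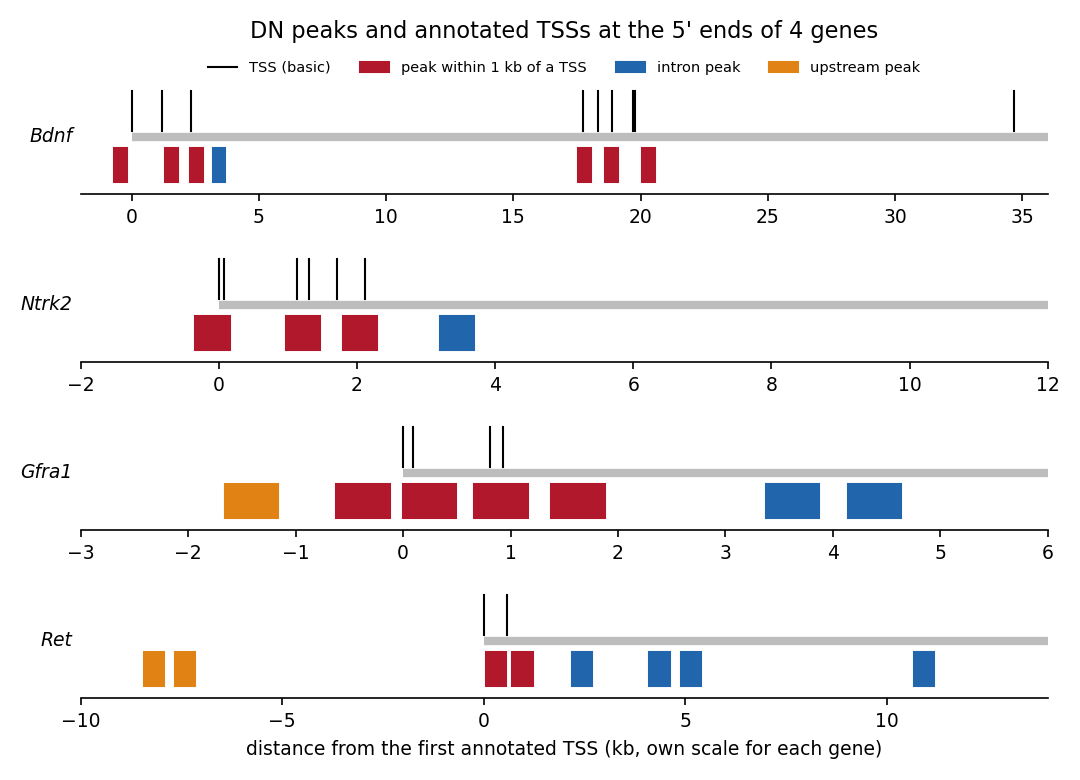
Peaks (boxes of 500 bp) and annotated TSSs (vertical lines) at the 5' ends of *Bdnf*, *Ntrk2*, *Gfra1* and *Ret*, by distance in kb from the first TSS in the direction of transcription, on a separate scale for each gene. At *Bdnf* both groups of TSSs had peaks beside them and the isolated TSS of Bdnf-202 had none, and at *Ret* the first peak lay between the 2 TSSs.

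Of the receptor genes, *Ret* (ENSMUSG00000030110, chr6:118151745-118197718, minus strand) had the highest density of peaks. It had 8 peaks in a gene body of 46 kb, or 174 per Mb, and 4.52% of the 6506 protein-coding genes of similar length had as many or more in their bodies, with a median of 1. With flanks it had 11 peaks, or 75.4 per Mb, the only one of the 9 genes above the upper quartile of protein-coding genes, 67.4. The peaks crowded at the 5' end, with 6, 1 and 1 in 3 equal parts of the gene body from start to end. The peak chr6:118197151-118197650 lay between its TSSs at 118197718 and 118197133, so neither TSS was inside a peak, although both were within 318 bp of its centre. Intron 1 of Ret-201, 12.6 kb long, held 5 peaks, at 379, 1849, 3781, 4563 and 10355 bp from the TSS of that transcript, and introns 4 and 18 held 1 each. The peak at 379 bp is counted among those at a TSS. A pair of peaks lay upstream, at -7403 and -8178 bp from the first TSS. Not all of the region belongs to *Ret* by distance, since the downstream peak was 53 bp from the TSS of *Csgalnact2* and the peak in intron 18 was also nearer to that gene.

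*Ntrk2* (ENSMUSG00000055254, chr13:58806569-59133970, plus strand) had 18 peaks in its body of 327.4 kb, and 8.08% of the 1163 genes of similar length had as many or more, with a median of 5. At the start, 3 peaks followed each other, centred at -90, 1221 and 2045 bp from the first TSS, and all 6 TSSs had a peak centre within 333 bp. The others were spread over the gene, 14 in introns and 1 over an exon at 40157 bp. *Ntrk2* makes both the full-length receptor and a short form that lacks the kinase domain, from transcripts that end earlier. Before the end of the short transcripts Ntrk2-202 and Ntrk2-204 at 58937027 there were 7 peaks in 130.5 kb, or 5.37 per 100 kb, and after it 11 in 196.9 kb, or 5.58 per 100 kb. The 7 include the 3 peaks at the start, without which the stretch before that end had 4 peaks, or 3.07 per 100 kb, a count added after the data had been seen. The 2 peaks outside the body were 337806 and 339267 bp from the first TSS, downstream, and all 20 peaks were nearer to a TSS of *Ntrk2* than to that of another protein-coding gene.

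*Ntrk3* (ENSMUSG00000059146, chr7:78175959-78738012, minus strand) is the longest of the 9 genes, with 562.1 kb, and had 15 peaks in its body. Its 4 TSSs of basic transcripts, between 78577783 and 78578408, all lay inside 1 of 2 neighbouring peaks, centred 447 bp and -55 bp from the first of them. The annotated body starts further upstream because of transcripts outside the basic set, and 2 peaks, 17696 and 79849 bp upstream of the first basic TSS, lay in that part. The 3 equal parts of its body held 6, 6 and 3 peaks. Before the end of the short transcript Ntrk3-202 at 78300690 the part from the basic TSSs had 3.60 peaks per 100 kb, or 2.88 without the 2 start-site peaks, and the 124.7 kb after it had 3 peaks, or 2.40 per 100 kb. Per Mb of body *Ntrk3* had 26.7 peaks, fewer than *Ntrk2* with 55.0 and *Ret* with 174. Of the 579 genes of similar length, 20.2% had as many peaks or more in their bodies. The 2 peaks in its upstream flank were nearest to *Mrpl46*, 1 of them 26 bp from the TSS of that gene.

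*Ngfr* (ENSMUSG00000000120, chr11:95568818-95587735, minus strand) had 1 peak in its body, chr11:95587378-95587877, which covered its only GENCODE TSS (basic transcripts) and was centred 108 bp downstream of it. Its other 3 peaks were 53805 to 66843 bp downstream and all nearer to the TSS of *Nxph3*. Without these, the gene had no peak outside its start. *Ngfr* is 18.9 kb long, and 68.1% of the 8004 genes of similar length had as many peaks or more in the body, with a median of 1.

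**Figure D3:**
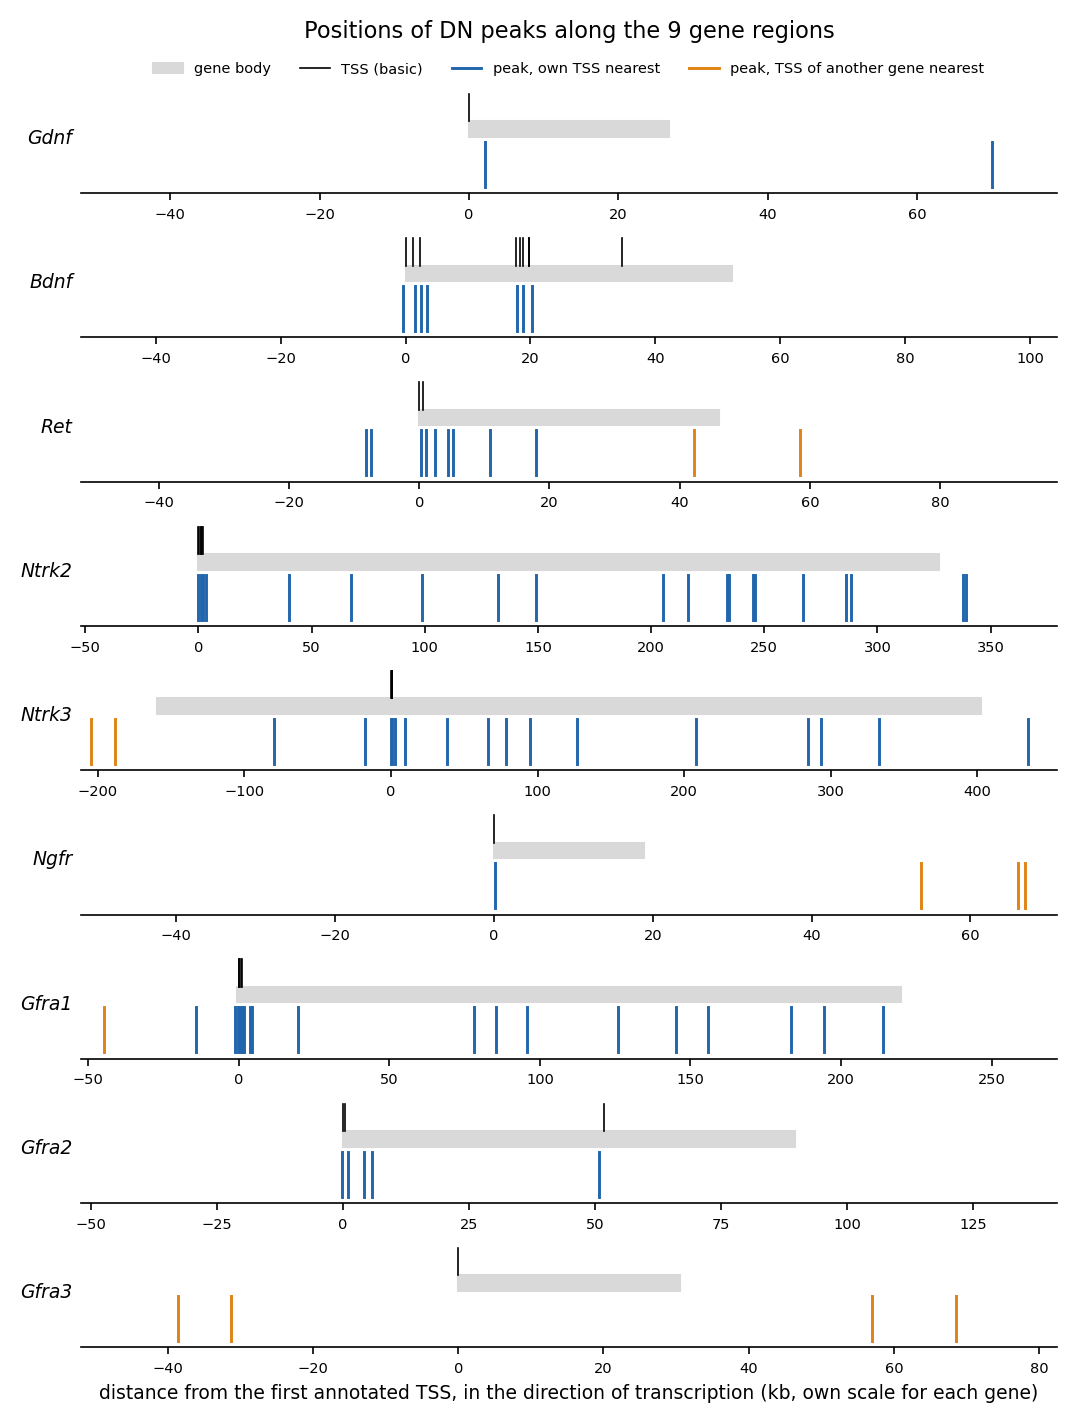
Positions of the 90 peaks (lower vertical lines) along the 9 gene regions, in kb from the first TSS in the direction of transcription and on a separate scale for each gene, with the gene body in grey and TSSs as upper lines. Peaks in orange were nearer to the TSS of another protein-coding gene, which was the case for 4 of 4 peaks at *Gfra3* and 3 of 4 at *Ngfr* and for none at *Gdnf*, *Bdnf*, *Ntrk2* and *Gfra2*.

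The 3 co-receptor genes had unlike counts of peaks. *Gfra1* (ENSMUSG00000025089, chr19:58235604-58455909, minus strand), which encodes the preferred co-receptor of GDNF, had 19 peaks, 16 of them in the body. Its 4 TSSs were each inside a peak, and 5 peaks in a row, with centres from -1411 to 1626 bp of the first TSS, covered its start. Introns 4, 5, 6 and 9 held 3, 5, 2 and 2 peaks. Of the 1899 genes of similar length, 6.85% had as many peaks or more in the body, with a median of 4. A peak 44793 bp upstream was nearer to *Ccdc172*.

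*Gfra2* (ENSMUSG00000022103, chr14:70890120-70979838, plus strand), which encodes the co-receptor of neurturin, had 5 peaks, all in or at the gene. Their centres were at -84, 1040, 4212, 5781 and 50773 bp from the first TSS, and the last was 993 bp upstream of the separate start of Gfra2-202 at 70941886. Of 4367 genes of similar length, 21.7% had as many peaks or more in the body. *Gfra3* (ENSMUSG00000024366, chr18:34689898-34720387, minus strand), which encodes the co-receptor of artemin, had none in its body or at its TSS. The peak nearest to its TSS was 31273 bp upstream, and its 4 flank peaks were nearest to *Cdc23*, *Cdc25c* and *Fam53c*, 3 of them within 147 bp of a TSS of these genes. Counts in the gene body thus ran from 16 at *Gfra1* over 5 at *Gfra2* to 0 at *Gfra3*, and per Mb of body from 72.6 over 55.7 to 0.

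Set against all protein-coding genes, the 9 genes were in the middle of the range per Mb of gene and flanks. The median density of peaks in gene and flanks was 33.6 per Mb over the 9 genes and 31.0 over protein-coding genes, whose quartiles were 9.65 and 67.4, and 5 of 9 were above that median. In gene bodies alone, the median was 55.0 per Mb against 29.2, and 7 of 9 were above it. The genes were long, with a median length of 52.3 kb against 17.4 kb, and had a median of 7 peaks against 4. The shares of protein-coding genes with as many peaks or more were 6.37% for *Ntrk2*, 7.39% for *Gfra1*, 8.39% for *Ntrk3*, 20.9% for *Ret* and 36.3% for *Bdnf*. For the remaining genes these shares were 49.5% at *Gfra2*, 58.1% at *Gfra3* and at *Ngfr* and 75.1% at *Gdnf*. When only genes of similar length were taken, they were 11.5% for *Ntrk2*, 10.6% for *Gfra1*, 19.3% for *Ntrk3*, 19.1% for *Ret* and 36.1% for *Bdnf*, and 55.3%, 61.9%, 61.5% and 81.6% for *Gfra2*, *Gfra3*, *Ngfr* and *Gdnf*.

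**Figure D4:**
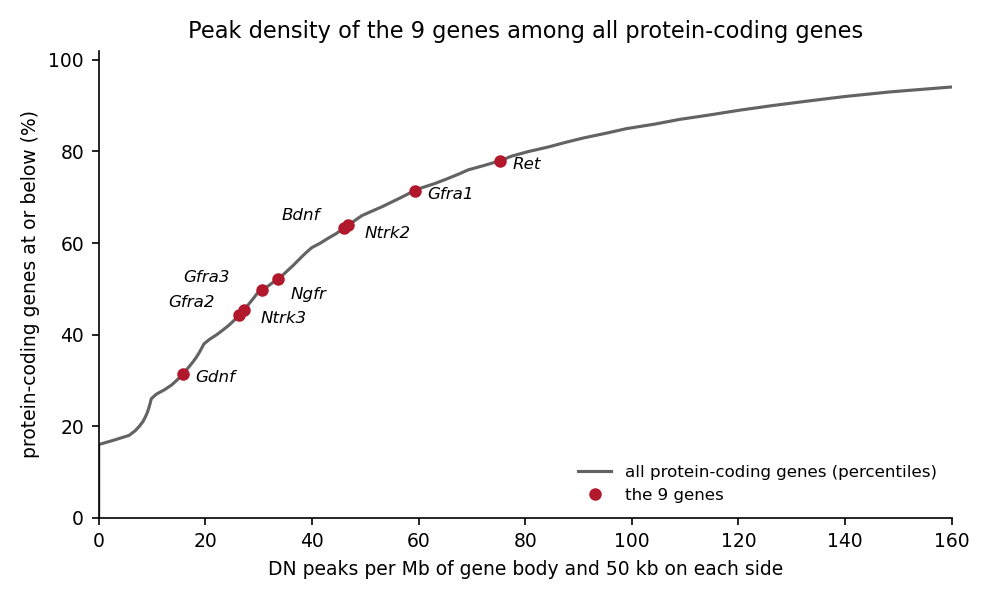
Percentage of protein-coding genes at or below a given density of DN peaks (y axis) against that density in peaks per Mb of gene and 50 kb on each side (x axis), with the 9 genes as points on the curve. The points ran from *Gdnf* at 15.8 to *Ret* at 75.4 peaks per Mb, and 5 of 9 were above the median of all genes.

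Other genes of the same pathways were counted in the same way. Of 8 other genes of the GDNF family and its receptors, 6 had a peak in the body and 4 at a TSS, beside 63.8% and 56.4% of all protein-coding genes. Their median density in gene and flanks was 98.0 per Mb, against 31.0 over protein-coding genes, and 7 of 8 were above that median. The peaks near the ligand genes *Artn* and *Pspn*, 10 each, were mostly outside bodies of 3.6 and 0.562 kb, with 2 and 0 peaks in them. *Gdf15*, 3.06 kb long, had 26 peaks, of which 3 were in the body. *Nrtn*, the neurturin gene, 6.21 kb long, had 13 peaks, of which 1 was in the body, and it had a TSS peak. For such short genes the density in gene and flanks is mostly that of the flanks. *Ncam1*, which encodes an adhesion molecule that also binds GDNF and GFRα1, had 23 peaks in its body, and the syndecan gene *Sdc3* 14. *Gfral*, the receptor gene for GDF15, had 0 in its body. Of the neurotrophin family, *Ntf3*, which encodes the ligand of TrkC, had 4 body peaks, and the sorting receptor genes *Sort1*, *Sorcs1*, *Sorcs2* and *Sorcs3* had 3, 5, 17 and 4.

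Genes of the adaptors that bind activated RET or Trk receptors had a TSS peak in 14 of 14 cases and 2 to 13 peaks in the body, beside 56.4% of all protein-coding genes with a TSS peak and 63.8% with a body peak. Their median density was 44.5 per Mb in gene and flanks, and 11 of 14 were above the median of protein-coding genes. The highest count was at *Kidins220*, a scaffold of Trk receptors, with 13, and *Frs3* had 9. Of 9 genes of other factors that act on dopaminergic neurons and of their receptors, 8 had a body peak and 7 a TSS peak, to be set against the same percentages, and their median density was 29.4 per Mb, with 4 of 9 above the median of protein-coding genes. *Cntf* and its receptor gene *Cntfr* lacked the TSS peak, and *Fgf20* and *Fgfr1* had 2 and 6 body peaks.

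Peaks at a start and peaks away from it differed in composition. The 21 peaks at a TSS of the 9 genes had a median GC content of 62.6% (range 50.0 to 68.6%), close to 62.2% for the 16677 peaks at protein-coding TSSs. A further 5 peaks were at the TSS of a neighbouring gene, and the 64 peaks at no protein-coding TSS had a median GC content of 49.9%, against 49.4% for all 38649 such peaks. The ratio of observed to expected CpG was above 0.6 in 18 of the 21, in 4 of the 5 and in 4 of the 64, or 6.25%. Among all peaks this share was 71.4% at TSSs and 6.24% elsewhere. The 3 TSS peaks below 0.6 were 1 each at *Gfra1*, with 0.567, at *Bdnf*, with 0.477 for the last of its peaks, and at *Gfra2*, with 0.181 for the peak before Gfra2-202. No peak of the 9 genes was repeat sequence over more than 50% of its length, as 1.44% of all peaks were. Of the peaks of the 9 genes, 38.9% were over 50 kb from every protein-coding TSS, against 23.1% of all peaks. Nearly all of these were at *Ntrk2*, *Ntrk3* and *Gfra1*, the longest of the 9 genes, whose bodies were taken whole.

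**Figure D5:**
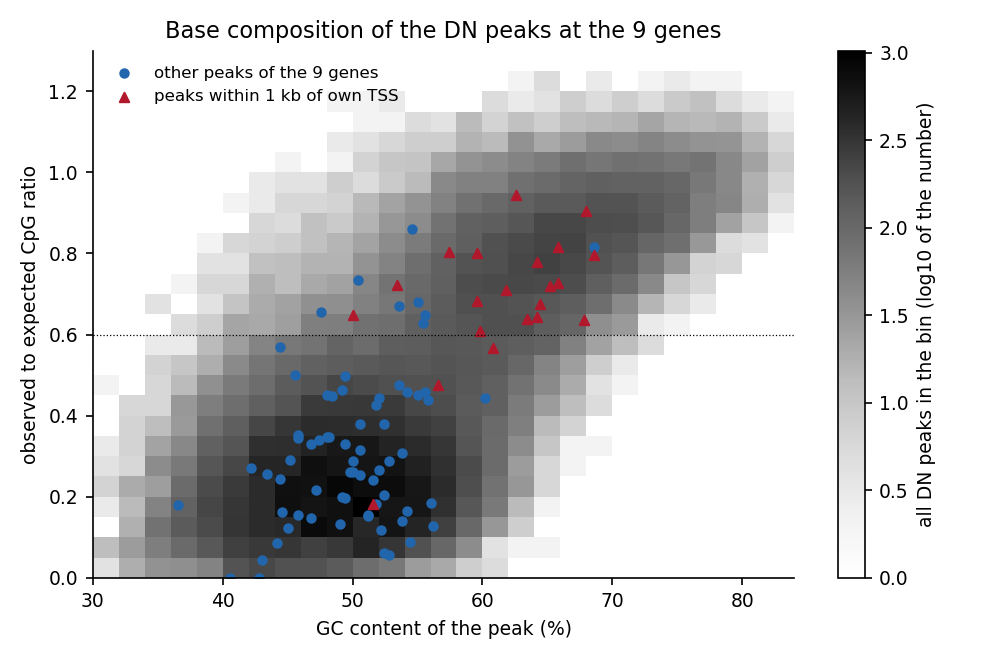
Ratio of observed to expected CpG (y axis) against GC content (x axis) for the 90 peaks, with peaks within 1 kb of an own TSS as red triangles and others as blue circles, over the number of all 55326 peaks in each bin (grey, log10 scale). Of the red triangles 18 of 21 lay above the dotted line at 0.6, and of the blue circles 8 of 69, of which 4 were at the TSS of a neighbouring gene.

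Short motifs were searched on both strands of the 90 peaks, and a match here is a description of the sequence. AAAGGTCA, the NBRE bound by NR4A factors, which include NR4A2 of dopaminergic neurons, was in 3 of 90 peaks, or 3.33% (95% exact interval 0.693 to 9.43%), against 4.00% of all peaks. The 3 matches, shown in capitals and reading TGACCTTT where they are on the strand opposite to the gene, were in introns of *Gfra1*, *Ntrk2* and *Ntrk3*.
Gfra1 NBRE, chr19:58241515-58241582 (minus strand): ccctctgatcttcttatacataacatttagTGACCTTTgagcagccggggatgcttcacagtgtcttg
Ntrk2 NBRE, chr13:58873997-58874064 (plus strand): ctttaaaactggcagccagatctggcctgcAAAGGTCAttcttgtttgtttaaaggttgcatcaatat
Ntrk3 NBRE, chr7:78483326-78483393 (minus strand): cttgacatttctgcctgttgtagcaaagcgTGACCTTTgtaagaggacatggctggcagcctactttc
They were within 117 bp of the centres of their peaks and 212914, 65336 and 94420 bp downstream of the nearest TSS of these genes.

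The forkhead motif, TGTTTAC or TATTTAC, was in 12 of the 90 peaks, or 13.3%, against 12.8% of all peaks, and 7 of the 12 were at *Gfra1*. The E-box CAGATGG was in 15, or 16.7% (9.64 to 26.0%), against 11.5%, but in the central 200 bp of the peaks it was in 3.33% against 5.32%. The AP-1 motif, TGAGTCA or TGACTCA, was in 8, or 8.89%, against 8.0%, and the CTCF consensus in 3, or 3.33%, against 5.25%. Of the peaks with CTCF matches, 1 was the intron 4 peak of *Ret* and 2 were peaks downstream of *Ngfr*. In the central 200 bp the AP-1 motif was in 3.33% of the 90 and 3.60% of all, and the NBRE in 2.22% and 2.13%, so for these and for the E-box the order of the shares turned with the window. In whole peaks, the share of all peaks lay within the interval for the 90 peaks for each of these motifs.

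The full CRE, TGACGTCA, the site of CREB factors, was in 0 of 90 peaks, which allows a share of up to 4.02%, against 1.51% of all peaks. A variant, TCACGTCA, known from a promoter of *Bdnf* that responds to neuronal activity, was searched after the values for the full CRE had been seen. It was in 3 peaks, or 3.33% (0.693 to 9.43%), against 0.548% of all peaks (303 peaks), and because it was chosen with a site of *Bdnf* known, the share is given with no reading. The 3 matches are in capitals, on the strand of the gene, and the *Ntrk2* stretch is shorter because it lies in an exon of Ntrk2-201.
Bdnf CRE variant, chr2:109692368-109692435 (plus strand): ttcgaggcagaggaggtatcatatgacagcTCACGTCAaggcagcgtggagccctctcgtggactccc
Ntrk2 CRE variant, chr13:58807807-58807836 (plus strand): tgcgtcagcccTCACGTCActtcgccagca
Gfra1 CRE variant, chr19:58369998-58370065 (minus strand): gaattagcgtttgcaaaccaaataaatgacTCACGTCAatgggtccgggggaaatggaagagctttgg
The *Bdnf* match lay 38 to 31 bp upstream of the TSS of Bdnf-209 and the *Ntrk2* match 60 to 53 bp upstream of the TSS of Ntrk2-205. The *Gfra1* match was in an intron, 84431 bp downstream of the nearest TSS.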

How the data were processed

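Nuclei of the midbrain ventral tegmental area were profiled by snATAC-seq in 2 libraries. Per the methods of the study, the authors mapped reads to mm10 with Cell Ranger, removed doublets and low-quality nuclei, chose the DN cluster and called reproducible peaks with ArchR on both libraries together. The deposited list gives only a chromosome, a start and an end (unit other: positions in bp). Whether a filter on the share of nuclei had been applied to it is not stated in the sources used here. The ES cell library was not analysed here.

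The list was taken as 0-based and printed positions are 1-based, so that, should it hold 1-based starts, those printed are 1 bp too high. Genes and TSSs came from GENCODE M21, further starts and sequence from RefSeq GRCm38, which has the same 20 chromosomes as the list uses. A peak was assigned by an overlap of at least 1 bp. Densities are peaks per Mb. Genes of similar length were those of 0.5 to 2 times the length. Motif shares have 95% exact binomial intervals, which cover counting error only. The genes, lists and motifs were chosen with earlier results of these data known. All 9 genes, genes of the fixed pathway lists and the genes nearest to their peaks were named, some list genes are not reported here, and markers and the genes overlapping a described peak were named beside them. Interval counting was tested on simulated data. Software was Python 3.11.15 with pandas 2.3.3, numpy 2.4.6 and scipy 1.17.1, and plots used matplotlib 3.10.9.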

Additional observations from a re-analysis of the deposited data

How the results depend on the processing

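With other definitions of the region, the 90 peaks became 70 in gene bodies alone, 74 with flanks of 10 kb, 119 with 100 kb, 78 without peaks nearest to another gene and 87 with bodies of basic transcripts. Assignment by the peak centre or starts counted from 1 left the number at 90. Genes with a TSS peak numbered 6 to 8 over the alternatives. The lowest count required the TSS inside the peak, which lost *Ret*, and the highest used RefSeq starts, chosen after seeing the data, which added *Gdnf*. The median density of the 9 genes was 55.0 per Mb in gene bodies alone, 45.6 with flanks of 10 kb and 39.0 with 100 kb, against 29.2, 33.8 and 30.4 over protein-coding genes. In all, 15 of 16 alternatives left these results within 1.5 times their value, and 16 of 79 moved a value for 1 gene or motif further. Without flanks *Gfra3* went from 4 peaks to 0, *Ngfr* from 4 to 1 and *Gdnf* from 2 to 1, and with flanks of 100 kb *Ret* went from 11 to 21, *Gfra3* to 9 and *Ngfr* to 10. In the central 200 bp of peaks, the E-box, AP-1 and NBRE shares changed their order against all peaks. No paired analysis was possible because both libraries are pooled in 1 list. Depth per peak is unknown, so weak accessibility at *Gfra3* or at the GENCODE TSS of *Gdnf* would not be seen.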
